A study of Mus musculus with 12 samples.

Results

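CA3 and the dentate gyrus (DG) of the mouse hippocampus were compared in fresh-frozen sections permeabilized with TE. The comparison was defined by the sample labels, with the 4 replicates labelled None_Frozen_TE_CA3 against the 4 labelled None_Frozen_TE_DG, which are 8 of the 48 replicates of the series. Genes with at least 10 UMIs (unique molecular identifiers, each marking 1 captured cDNA molecule) summed over the 8 replicates were tested, which left 14386 of 32546 genes. Sections came from male ICR mice aged 8 weeks. The label None means that the tissue was frozen without fixation, and TE permeabilization was at 70 °C for 1 h. The study's protocol also puts 4% PFA on the cut sections, frozen or paraffin, before permeabilization. In photo-isolation chemistry (PIC), reverse transcription is primed on the section with oligonucleotides blocked by a photo-removable group, and only cDNA from the region lit by ultraviolet light is amplified, here by CEL-seq2. The region therefore holds every cell inside the lit area, and fewer cells of a type cannot be told apart from less RNA per cell. The 4 replicates of a region carried different barcodes and were sequenced in 1 pooled library, so that region and library cannot be told apart. The study's methods call the replicates biological, and the labels do not give which mouse supplied which. The p-values rest on the spread between these replicates, drawn by the fit toward a spread shared across genes. A limit for fixed frozen and paraffin sections is given below. The series description names CA2 where the sample titles name CA3, and the titles were followed. The 4 CA1 replicates of the same preparation and the CA3 and DG replicates of the other 3 preparations (fresh-frozen with HCl, fixed frozen with TE and fixed paraffin with TE, the fixative being 4% PFA) were used for comparison.

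DG and CA3 are successive stations of the hippocampal circuit. Granule cells of the DG receive cortical input and send their axons, the mossy fibres, to CA3, where large boutons contact the proximal dendrites of pyramidal cells. Granule cells are the main neurons of the DG and are known for the transcription factor Prox1, for calbindin and for being added throughout life. CA3 pyramidal cells excite one another through recurrent collaterals and project to CA1 through the Schaffer collaterals. CA3 also holds myelinated axons, interneurons and glia, and the DG holds a hilus with mossy cells and interneurons.

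The CA3 replicates held between 511767 and 1111804 UMIs and the DG replicates between 294445 and 596072, with 15006 to 18527 and 13817 to 16467 genes detected. Mitochondrially encoded transcripts took 2.55% to 3.76% of UMIs in CA3 and 3.49% to 5.50% in DG. These shares cannot show a difference between the regions. One of the transcripts, mt-Rnr2, lay at the limit of 4096 different UMIs per gene in every replicate (4093 to 4317), whatever the total. Reads assigned to nuclear copies of mitochondrial genes, described below, are not in the shares. Levels are given as CPM, which are UMIs of a gene per 1000000 UMIs of its replicate, always in the order of replicates 1 to 4, and means carry the SD with n = 4 per region. Fold changes are log2 values of CA3 over DG with the SE of the fitted model, and adjusted p-values come from edgeR's quasi-likelihood test with Benjamini-Hochberg adjustment over all genes tested. Genes counted as called at an adjusted p under 0.05.

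The regional markers followed the labels. Dkk3 stood at 625, 545, 586 and 809 CPM in CA3 and at 203, 164, 198 and 224 CPM in DG, and this Wnt antagonist family member of pyramidal cells (chr7:112116017.0-112159057.0, GRCm38) had a fold change of 1.77 ± 0.17 (adjusted p = 1.91e-08). Prox1 stood at 195, 223, 189.8 and 189.5 CPM in CA3 and at 895, 1245, 1023 and 1138 CPM in DG. This homeobox factor of granule cells (chr1:190118035-190170714) did not overlap between the regions either, and its fold change was -2.38 ± 0.15 (adjusted p = 3.71e-12). Neurod6, a basic helix-loop-helix factor of pyramidal neurons, stood at 369.9, 288, 285 and 485 CPM in CA3 and at 165, 98.8, 124 and 122 CPM in DG, a change of 1.53 ± 0.20 (adjusted p = 3.56e-06) without overlap. Prox1 and Pdzd2 were not zero in CA3, where their means were 199 ± 16.1 and 18.6 ± 5.12 CPM. Wfs1, which marks CA1 pyramidal cells, was at 46.1 ± 16.8 CPM in CA3, at 44.9 ± 21.7 CPM in DG and at 345 ± 73.7 CPM in CA1, and CA3 and DG overlapped in it with a fold change of 0.10 ± 0.28 (adjusted p = 0.911).

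**Figure D1:**
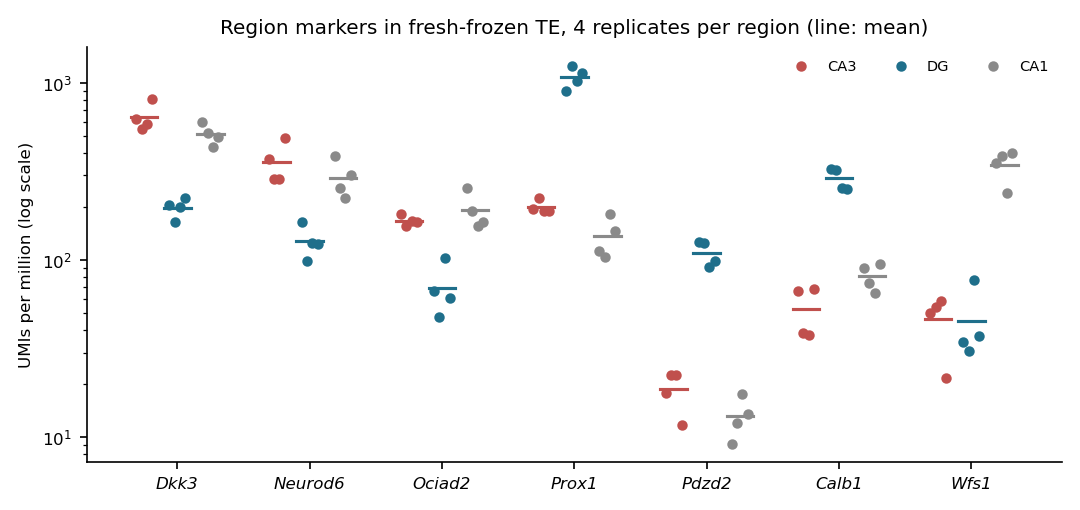
Level of 7 regional marker genes in CPM (log axis) in CA3 (red), DG (blue) and CA1 (grey), with 1 point per replicate and a line at the mean of 4. CA3 and DG replicates do not overlap in Dkk3, Neurod6, Ociad2, Prox1, Pdzd2 and Calb1, and they overlap in Wfs1, which is high in CA1.

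In all, 1140 genes were called, 7.92% of those tested. CA3 was higher in 626 of them (4.35%) and DG in 514 (3.57%). With DESeq2 size factors the split was 575 toward CA3 and 548 toward DG, and with totals alone it turned to 532 and 573. The fold change was at least 1 in 271 genes higher in CA3 (1.88%) and at most -1 in 338 genes higher in DG (2.35%). The replicates of the regions did not overlap in 1772 genes (12.3%), and the median fold change over all genes tested was 0.026. With the replicate number as a block, 1944 genes were called, among them 1137 of the 1140. Without DG replicate 2 the count was 718, and with all replicates thinned to 294445 UMIs it was 736. Counts of called members in every list below are to be read beside the shares over all genes (7.92%, with 4.35% toward CA3 and 3.57% toward DG). With a stricter filter on low counts (edgeR's filterByExpr) 1013 of 7806 genes were called, which is a larger share.

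Genes that mark pyramidal cells of CA3 gave more calls toward CA3 than toward DG. Of 10 CA3 pyramidal markers tested, 5 were called higher in CA3, 1 was called higher in DG and 4 were not called, with a median fold change of 1.31. Nectin3 stood at 312, 284, 318 and 424 CPM in CA3 and at 159, 97.1, 116 and 112 CPM in DG. Nectin3, an adhesion molecule of the CA3 side of the mossy fibre contact, did not overlap between the regions and changed by 1.52 ± 0.19 (adjusted p = 1.40e-06). Cpne4 stood at 549.7, 490.2, 421 and 535 CPM in CA3 and at 349.7, 165, 247 and 248 CPM in DG, so that this calcium-dependent membrane-binding protein also separated the regions (1.04 ± 0.18, adjusted p = 2.19e-04). Socs2, a suppressor of cytokine signalling, was at 137 ± 8.42 CPM in CA3 and 54.0 ± 16.5 CPM in DG (1.41 ± 0.21, adjusted p = 2.47e-05). Bok, a Bcl-2 family member, had a fold change of 1.37 ± 0.34 (adjusted p = 0.00817), but its adjusted p was 0.193 at equal depth. Tspan18, a tetraspanin placed on the list as a CA3 marker, went the other way with 5.90, 10.8, 3.22 and 11.7 CPM in CA3 and 32.5, 29.0, 15.1 and 40.8 CPM in DG (-1.79 ± 0.40, adjusted p = 0.00369). Iyd, an iodotyrosine deiodinase, had 16 UMIs over the CA3 replicates and 1 over the DG replicates and was not called (adjusted p = 0.138). All 3 markers that CA1 and CA3 pyramidal cells share were called higher in CA3. Ociad2 stood at 181, 156, 165 and 164 CPM in CA3 and at 67.1, 47.7, 102 and 61.1 CPM in DG, with a fold change of 1.29 ± 0.20 (adjusted p = 5.11e-05).

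Markers of the neighbouring fields gave no call toward CA3. None of 8 CA2 markers tested was called higher in CA3, and 2 were called higher in DG (with the replicate block 2 and 2). Pcp4 stood at 259, 246, 206 and 342 CPM in CA3 and at 508, 428, 374 and 591 CPM in DG, and the fold change of this calmodulin regulator was -0.80 ± 0.18 (adjusted p = 0.003). Ntf3, the neurotrophin NT-3, was at 11.1 ± 5.95 CPM in CA3 and 39.6 ± 10.4 CPM in DG (-1.88 ± 0.36, adjusted p = 6.00e-04), and granule cells are a known source of it. Rgs14 and Amigo2, which define CA2 pyramidal cells, were at 52.1 ± 8.74 and 49.5 ± 15.2 CPM in CA3 and at 30.5 ± 10.1 and 29.3 ± 7.10 CPM in DG, with adjusted p-values of 0.0529 and 0.104, or 0.00699 and 0.0157 with the replicate block. None of 5 CA1 markers was called in edgeR, 1 of them had an unadjusted p under 0.05, and DESeq2 also called 0, whereas the replicate block gave 1 call toward CA3.

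Granule cell markers were called toward DG and not toward CA3. Of 15 tested, 0 were called higher in CA3, 12 were called higher in DG and 3 were not called, and the median fold change was -2.13. C1ql2 stood at 22.1, 23.4, 7.50 and 13.7 CPM in CA3 and at 187, 143, 134 and 149 CPM in DG. C1ql2, a secreted C1q-like protein of mossy fibre boutons, was lower in every CA3 replicate than in any DG replicate (-3.13 ± 0.25, adjusted p = 5.51e-10). Dsp stood at 25.1, 16.2, 7.50 and 9.77 CPM in CA3 and at 136, 153, 85.6 and 159.6 CPM in DG, and this desmosomal plaque protein changed by -3.12 ± 0.28 (adjusted p = 5.54e-09). Calb1 stood at 66.3, 38.7, 37.5 and 68.4 CPM in CA3 and at 327, 322, 253 and 251 CPM in DG. The calcium buffer calbindin, encoded by Calb1, was thus separated between the regions, with a fold change of -2.46 ± 0.21 (adjusted p = 1.29e-09). Fam163b was at 81.8 ± 11.3 CPM in CA3 and 491 ± 98.5 CPM in DG (-2.53 ± 0.18, adjusted p = 3.05e-11). Pdzd2, a protein with several PDZ domains, had values of 17.7, 22.5, 22.5 and 11.7 CPM in CA3 and 126, 124, 90.6 and 98.5 CPM in DG, which did not overlap (-2.45 ± 0.23, adjusted p = 1.53e-08). Other called markers were Tdo2, which encodes tryptophan dioxygenase (-2.79 ± 0.39, adjusted p = 1.09e-05), Stxbp6 (-2.13 ± 0.21, adjusted p = 3.35e-08), the polo-like kinase gene Plk5 (-2.11 ± 0.40, adjusted p = 6.39e-04) and Lct, the lactase gene (-1.77 ± 0.26, adjusted p = 2.68e-05). Maml2, a Notch coactivator, changed by -1.17 ± 0.27 (adjusted p = 0.00402), and its adjusted p was 0.0845 at equal depth. Il16 (0.54 ± 0.38), Trpc6 (-1.12 ± 0.66) and Glis3 (-0.77 ± 0.65) were not called, with adjusted p-values of 0.498, 0.389 and 0.601. 11 of the 12 calls held in each fit that left out 1 replicate.

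The hilus and the neurogenic zone lie inside the DG, and their lists are set beside the 7.92% called over all genes. Of 4 hilar mossy cell markers tested, Calb2 alone was called. Calb2 stood at 33.9, 25.2, 31.1 and 19.5 CPM in CA3 and at 77.3, 101, 87.2 and 57.7 CPM in DG. Calretinin, encoded by Calb2, is carried by mossy cells and also by immature granule cells, and its change was -1.52 ± 0.23 (adjusted p = 3.76e-05). Drd2, a defining mossy cell marker, had no UMI in either region, which allows up to 3 UMIs per region. Of 9 genes of adult neurogenesis, 3 were called higher in DG and 0 higher in CA3. Neurod1, which is needed for granule cell differentiation, was at 102, 93.5, 83.6 and 113 CPM in CA3 and 193, 203, 163 and 211 CPM in DG without overlap (-0.93 ± 0.17, adjusted p = 5.20e-04). The proliferation marker Mki67 changed by -1.32 ± 0.37 (adjusted p = 0.0213) and the neuroblast factor Sox11 by -0.60 ± 0.17 (adjusted p = 0.0244). Mki67 was not called without CA3 replicates 2 or 4 or DG replicates 2 or 4 (adjusted p = 0.0515 to 0.0745) or at equal depth (0.377), and Sox11 was not called without CA3 replicates 2 or 4 or DG replicates 2 or 3 (adjusted p = 0.0565 to 0.0948). Dcx, which encodes doublecortin of immature neurons, was at 33.7 ± 12.3 CPM in CA3 and 41.8 ± 9.47 CPM in DG and was not called (-0.22 ± 0.27, adjusted p = 0.752).

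Genes of the synapse between granule cells and CA3 pyramidal cells moved in both directions, beside 7.92% called over all genes. Of 18 tested, 5 were called higher in CA3, 4 higher in DG and 9 were not called (median -0.18). Among genes for proteins of the presynaptic side, C1ql2 and C1ql3 were higher in DG. C1ql3 stood at 1.47, 25.2, 23.6 and 15.6 CPM in CA3 and at 77.3, 148, 109 and 57.7 CPM in DG. C1ql2 and C1ql3 proteins are released by mossy fibres and cluster kainate receptors on CA3 dendrites, and the fold change of C1ql3 was -2.47 ± 0.33 (adjusted p = 4.73e-06). The other genes of the list called higher in DG, whatever their side, were those of the glypican Gpc4 and of Lrrtm4, a leucine-rich synaptic adhesion protein. They changed by -1.59 ± 0.37 (adjusted p = 0.00451) and -1.37 ± 0.26 (adjusted p = 5.95e-04), with adjusted p-values of 0.111 and 0.102 at equal depth.

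On the postsynaptic side, Grik4 encodes a high-affinity kainate receptor subunit of CA3. Grik4 stood at 48.6, 60.3, 61.1 and 80.1 CPM in CA3 and at 22.4, 29.0, 23.5 and 30.6 CPM in DG, without overlap, and its fold change was 1.29 ± 0.25 (adjusted p = 8.53e-04). Gpr158, an orphan receptor that binds glypican 4, was at 98.4 ± 15.7 CPM in CA3 and 57.3 ± 13.3 CPM in DG (0.79 ± 0.20, adjusted p = 0.0132), and its adjusted p was 0.0507 without CA3 replicate 1 and 0.0501 without DG replicate 4. The kainate receptor auxiliary subunit Neto1 changed by 0.66 ± 0.17 (adjusted p = 0.015), and its adjusted p was 0.0921 without CA3 replicate 3, 0.0518 without DG replicate 3 and 0.056 without DG replicate 4. The adhesion pair of the contact was called on both sides with the same sign. Nectin1, known from the mossy fibre side, was at 54.5, 36.0, 40.7 and 27.4 CPM in CA3 and 18.3, 17.0, 10.1 and 20.4 CPM in DG and was higher in CA3 (1.37 ± 0.31, adjusted p = 0.00425), as Nectin3 was. Slc30a3, the zinc transporter of mossy fibre vesicles, was at 125 ± 31.7 CPM in CA3 and 156 ± 15.8 CPM in DG and was not called (-0.29 ± 0.19, adjusted p = 0.446). Bdnf and Grik2 were not called either, with fold changes of -0.20 ± 0.15 and -0.17 ± 0.20 and adjusted p-values of 0.55 and 0.748.

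**Figure D2:**
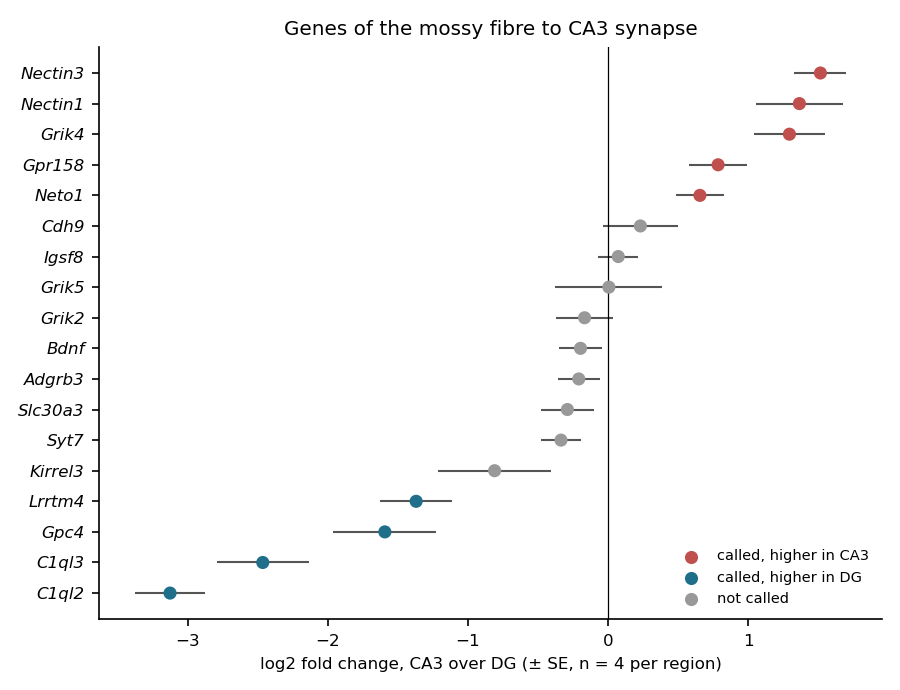
Fold change of CA3 over DG on the log2 scale, with the SE as bars (n = 4 per region), for 18 genes of the mossy fibre synapse, coloured by call. C1ql2 and C1ql3 lie farthest toward DG at -3.13 and -2.47, and Nectin3, Nectin1 and Grik4 farthest toward CA3 at 1.52, 1.37 and 1.29.

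Glutamate and GABA receptor genes are set beside the 7.92% called over all genes. Of 7 kainate receptor genes, 3 were called higher in CA3 and 0 in DG. Besides Grik4 and Neto1 this was Neto2, an auxiliary subunit with 125, 138, 125 and 170.0 CPM in CA3 and 59.0, 61.3, 67.1 and 84.9 CPM in DG, which did not overlap (1.11 ± 0.19, adjusted p = 2.38e-04). None of 10 AMPA and NMDA receptor genes was called, 0 had an unadjusted p under 0.05, and DESeq2 called 0. Their fold changes ran from -0.25 to 0.44, and Gria2, the subunit that sets calcium permeability, was at 2414 ± 374 CPM in CA3 and 2913 ± 299 CPM in DG (-0.21 ± 0.15, adjusted p = 0.495). Of 7 metabotropic glutamate receptor genes, 1 was called each way. Grm2, a presynaptic receptor of mossy fibres, was at 4.42, 8.09, 2.14 and 0 CPM in CA3 and 28.5, 30.7, 23.5 and 44.2 CPM in DG (-2.75 ± 0.44, adjusted p = 8.24e-05). Grm3, of the same receptor group, lay in the opposite direction at 299, 336, 195 and 324 CPM in CA3 and 132, 80.1, 133 and 146 CPM in DG (1.30 ± 0.20, adjusted p = 3.27e-05). Both were free of overlap. Of 12 GABA-A receptor genes only Gabrd was called (with the replicate block 1 and 3). Gabrd, the delta subunit of tonic inhibition, had 4 UMIs over the CA3 replicates and 19 over the DG replicates, and its adjusted p of 0.024 rested on these few UMIs. The call was lost without CA3 replicates 1 or 2 or DG replicates 1 or 3 (adjusted p = 0.0547 to 0.106) or in DESeq2 (0.0618), and the fold change of -2.74 became -5.55 without CA3 replicate 3.

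Calls among ion channel genes went both ways and are set beside the 7.92% called over all genes. Of 33 potassium channel genes, 4 were called higher in CA3, 5 higher in DG (with the replicate block 6 and 8) and 24 were not called, with a median of -0.092, and without 1 replicate the counts were 3 to 4 toward CA3 and 0 to 4 toward DG. Kcnq5 had the largest change of the list. Kcnq5 stood at 196, 109, 127 and 176 CPM in CA3 and at 63.0, 20.4, 50.3 and 27.2 CPM in DG. This subunit of the M-current did not overlap between the regions and changed by 1.92 ± 0.27 (adjusted p = 9.91e-06). Kcnc2, a fast delayed rectifier, and Kcna2, an axonal channel, were called higher in CA3 by 0.79 ± 0.17 (adjusted p = 0.00259) and 0.58 ± 0.14 (adjusted p = 0.00793). Toward DG, the tandem-pore channel Kcnk9 and the inward rectifier Kcnj4 changed by -1.06 ± 0.29 (adjusted p = 0.0202) and -1.03 ± 0.27 (adjusted p = 0.0153). Kcnk9 was not called without DG replicates 2 or 3 (adjusted p = 0.0856 to 0.131), and Kcnj4 was not called without DG replicates 2 or 3 (adjusted p = 0.0862 to 0.107) or at equal depth (0.206). Of 27 calcium, sodium and HCN channel genes, 7 were called higher in CA3 and 2 higher in DG (median 0.19). At equal depth these counts were 3 and 2, and without 1 replicate the counts were 6 to 8 toward CA3 and 1 to 2 toward DG. Scn3a stood at 200.4, 170.0, 210.1 and 213 CPM in CA3 and at 435, 518, 418 and 581 CPM in DG, and this sodium channel was the one pore subunit of its family called higher in DG (-1.24 ± 0.16, adjusted p = 2.53e-06). Scn8a, the sodium channel of the axon initial segment, was called higher in CA3 (0.62 ± 0.14, adjusted p = 0.0048). Cacna1a, the P/Q-type pore subunit of presynaptic terminals, was at 774 ± 47.8 CPM in CA3 and 486 ± 54.8 CPM in DG (0.73 ± 0.14, adjusted p = 8.13e-04).

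The calcium buffers called were higher in DG and the calcium sensors and kinases called were higher in CA3. The share called over all genes was 7.92%. Of 26 genes for calcium buffers, sensors and kinases, 5 were called higher in CA3 and 2 higher in DG (with the replicate block 6 and 5), the last being Calb1 and Calb2, and all 7 calls held in every fit that left out 1 replicate. Hpca stood at 109, 192, 205 and 143 CPM in CA3 and at 63.0, 83.5, 78.8 and 37.4 CPM in DG. Hippocalcin, the neuronal calcium sensor encoded by Hpca, did not overlap (1.30 ± 0.21, adjusted p = 9.53e-05), and neither did Camk4, a nuclear CaM kinase, which was at 369.5 ± 62.1 CPM in CA3 and 183 ± 36.7 CPM in DG (1.05 ± 0.17, adjusted p = 6.83e-05). Camk1d (0.86 ± 0.14, adjusted p = 1.30e-04), the upstream kinase Camkk2 (0.73 ± 0.16, adjusted p = 0.00226) and visinin-like Vsnl1 (0.70 ± 0.17, adjusted p = 0.00587) were also called higher in CA3. Camk2a, the abundant postsynaptic kinase, was at 1963 ± 299 CPM in CA3 and 2651 ± 604 CPM in DG and was not called (-0.38 ± 0.16, adjusted p = 0.19), although the replicate block gave an adjusted p of 0.00289.

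Receptors for modulators and peptides were called in both directions, beside 7.92% called over all genes. Of 29 tested, 4 were called higher in CA3, 5 higher in DG and 20 were not called (median -0.021), and without 1 replicate the counts were 3 to 5 toward CA3 and 2 to 5 toward DG. The neuropeptide Y receptors differed in sign. Npy5r stood at 10.3, 8.09, 8.58 and 3.91 CPM in CA3 and at 34.6, 39.2, 18.5 and 44.2 CPM in DG. Npy1r was at 13.3, 27.9, 10.7 and 17.6 CPM in CA3 and 54.9, 66.4, 53.7 and 54.3 CPM in DG. Npy5r and Npy1r did not overlap and were higher in DG (-1.98 ± 0.36, adjusted p = 4.50e-04 and -1.64 ± 0.28, adjusted p = 1.64e-04), whereas the presynaptic receptor Npy2r, at 157 ± 24.0 CPM in CA3 and 94.0 ± 14.7 CPM in DG, was higher in CA3 (0.77 ± 0.19, adjusted p = 0.00682). Chrm3 stood at 165, 163, 239 and 189.5 CPM in CA3 and at 71.2, 63.0, 117 and 57.7 CPM in DG, and this muscarinic acetylcholine receptor changed by 1.30 ± 0.20 (adjusted p = 5.56e-05). Adora1, the adenosine receptor that dampens transmitter release, changed by 0.69 ± 0.15 (adjusted p = 0.00235). Among serotonin receptors, Htr2a was called higher in CA3 (1.45 ± 0.42, adjusted p = 0.0293) and Htr4 and Htr2c higher in DG (-1.39 ± 0.42, adjusted p = 0.0374 and -1.38 ± 0.32, adjusted p = 0.00545). Htr2a was not called without CA3 replicates 1, 2 or 3 or DG replicates 1 or 3 (adjusted p = 0.0532 to 0.145), in DESeq2 (0.11) or at equal depth (0.23), Htr4 was not called without CA3 replicates 1 or 3 or DG replicates 1 or 2 (adjusted p = 0.0519 to 0.293), in DESeq2 (0.0863) or at equal depth (0.199), and Htr2c was not called without DG replicate 2 (adjusted p = 0.0644) or at equal depth (0.0727).

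Transcription factor genes are set beside the 7.92% called over all genes. Of 30 transcription factor genes of excitatory neurons, 2 were called higher in CA3 and 6 higher in DG (with the replicate block 7 and 9), all of them also in each fit without 1 replicate. The pair higher in CA3 was Neurod6 and Meis2. Meis2 stood at 89.9, 65.7, 102 and 72.3 CPM in CA3 and at 14.2, 8.52, 18.5 and 27.2 CPM in DG, a separation with a fold change of 2.41 ± 0.29 (adjusted p = 7.48e-07) for this TALE homeobox gene. Higher in DG besides Prox1 and Neurod1 were Bcl11b, Bhlhe22, Mef2c and Nfib. Bcl11b stood at 348, 390.4, 506 and 281 CPM in CA3 and at 697, 915, 834 and 832 CPM in DG. Bcl11b, which encodes the zinc finger protein Ctip2, did not overlap between the regions and changed by -1.05 ± 0.15 (adjusted p = 2.47e-05). Bhlhe22 (-1.0 ± 0.17, adjusted p = 1.47e-04), the activity-regulated factor gene Mef2c (-0.96 ± 0.15, adjusted p = 4.55e-05) and Nfib (-0.57 ± 0.14, adjusted p = 0.0067) followed. The granule-cell and pyramidal-cell factor gene Zbtb20 was at 2968 ± 339 CPM in CA3 and 3850.4 ± 404 CPM in DG and was not called (-0.32 ± 0.14, adjusted p = 0.212), although the replicate block gave 0.0079.

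Guidance and adhesion genes held calls for both ligands and receptors, beside 7.92% called over all genes. Of 34 axon guidance genes, 8 were called higher in CA3, 5 higher in DG (with the replicate block 12 and 8) and 21 were not called, with a median of 0.29, and without 1 replicate the counts were 8 to 9 toward CA3 and 3 to 5 toward DG. Among ligands, Sema3e and Slit2 were higher in CA3. Sema3e stood at 91.4, 70.2, 90.1 and 104 CPM in CA3 and at 32.5, 23.9, 48.7 and 10.2 CPM in DG, and the change was 1.55 ± 0.27 (adjusted p = 1.80e-04). Slit2 changed by 0.93 ± 0.17 (adjusted p = 3.59e-04). Sema5a stood at 265, 330.1, 259 and 330.2 CPM in CA3 and at 602, 816, 574 and 737 CPM in DG. This membrane semaphorin was higher in DG without overlap (-1.15 ± 0.15, adjusted p = 5.71e-06), as was the netrin-G gene Ntng1 by -1.0 ± 0.21 (adjusted p = 0.00203). Among receptors, the plexin Plxna1 was at 149, 197, 223 and 186 CPM in CA3 and 79.3, 47.7, 83.9 and 61.1 CPM in DG and did not overlap (1.51 ± 0.20, adjusted p = 3.40e-06). The Eph receptor genes Epha3 (1.08 ± 0.20, adjusted p = 4.72e-04), Ephb1 (0.81 ± 0.16, adjusted p = 9.77e-04) and Epha5 (0.57 ± 0.14, adjusted p = 0.00634) were called higher in CA3. Of 23 cadherin genes, 5 were called higher in CA3 and 2 higher in DG (without 1 replicate the counts were 5 to 6 toward CA3 and 1 to 2 toward DG), with Pcdh1 (1.04 ± 0.18, adjusted p = 1.80e-04) and Pcdh17 (-1.01 ± 0.18, adjusted p = 2.21e-04) the largest called changes each way.

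Of 36 vesicle and release genes, 11 were called higher in CA3, 5 higher in DG and 20 were not called, with a median of 0.29. The share called over all genes was 7.92%. At equal depth 7 and 5 were called, and without 1 replicate the counts were 7 to 11 toward CA3 and 4 to 5 toward DG. Sv2b stood at 332, 243, 272 and 401 CPM in CA3 and at 97.6, 54.5, 102 and 74.7 CPM in DG. Sv2b, a glycoprotein of synaptic vesicles, did not overlap and changed by 1.96 ± 0.21 (adjusted p = 1.22e-07). Its paralog Sv2c was called in the other direction (-2.77 ± 0.54, adjusted p = 9.25e-04), with 10 UMIs over the CA3 replicates and 45 over the DG replicates. Synaptotagmins, the family that holds the calcium sensors of release, also split. Syt2 was called higher in CA3 (1.22 ± 0.30, adjusted p = 0.0071), and Syt17 and Syt9 higher in DG (-2.58 ± 0.34, adjusted p = 4.03e-06 and -2.32 ± 0.45, adjusted p = 8.52e-04). Of the vesicular glutamate transporters, Slc17a6 was at 29.5, 38.7, 74.0 and 78.2 CPM in CA3 and 140.3, 262, 124 and 207 CPM in DG, without overlap (-1.70 ± 0.26, adjusted p = 3.07e-05), and Slc17a7 was at 381 ± 116 CPM in CA3 and 421 ± 111 CPM in DG and was not called (-0.10 ± 0.18, adjusted p = 0.851). Syn1 (0.80 ± 0.16, adjusted p = 0.00101), Syp (0.66 ± 0.14, adjusted p = 0.00256), Cplx1 (0.72 ± 0.15, adjusted p = 0.00195) and the active-zone scaffold Bsn (0.80 ± 0.17, adjusted p = 0.00177) were higher in CA3.

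The matrix, immediate early, neurotrophin and corticosteroid lists are set beside the 7.92% called over all genes. Of 31 extracellular matrix genes, 6 were called higher in CA3 and 3 higher in DG, but DESeq2 called 3 and 3, and without 1 replicate the counts were 3 to 5 toward CA3 and 1 to 2 toward DG. Col11a1 stood at 45.7, 234, 136 and 82.1 CPM in CA3 and at 20.3, 18.7, 35.2 and 10.2 CPM in DG. The collagen gene Col11a1 did not overlap and changed by 2.54 ± 0.36 (adjusted p = 1.40e-05). Hapln4, a link protein of perineuronal nets, was at 94.3, 126, 106 and 104 CPM in CA3 and 28.5, 22.1, 52.0 and 30.6 CPM in DG (1.72 ± 0.23, adjusted p = 5.91e-06), and the proteoglycan gene Spock1 changed by 1.31 ± 0.20 (adjusted p = 3.47e-05). Of 18 immediate early genes, 4 were called higher in CA3 and 1 higher in DG (with the replicate block 4 and 2), with a median of 0.54, and without 1 replicate the counts were 2 to 4 toward CA3 and 1 toward DG. Egr1 stood at 60.4, 71.1, 82.6 and 56.7 CPM in CA3 and at 22.4, 11.9, 41.9 and 17.0 CPM in DG, with a change of 1.54 ± 0.28 (adjusted p = 3.54e-04). Nr4a3 followed with 1.36 ± 0.21 (adjusted p = 3.61e-05). Jun was the member called higher in DG, at 95.8, 101, 76.1 and 58.6 CPM in CA3 and 213, 286, 203 and 211 CPM in DG (-1.40 ± 0.18, adjusted p = 2.95e-06). Fos, the member most used as an activity marker, was at 4.04 ± 2.69 CPM in CA3 and 1.86 ± 1.67 CPM in DG and was not called (1.12 ± 0.78, adjusted p = 0.49). Of 6 neurotrophin genes tested, Ntf3 was called higher in DG and the sorting receptor Sort1 higher in CA3 (0.65 ± 0.17, adjusted p = 0.0148), and of 8 corticosteroid receptor and target genes, the kinase gene Sgk1 was called higher in CA3 (0.60 ± 0.19, adjusted p = 0.0431). Sort1 was not called without CA3 replicate 4 or DG replicate 2 (adjusted p = 0.0549 to 0.104), and Sgk1 was not called without CA3 replicates 1, 2 or 4 or DG replicates 2, 3 or 4 (adjusted p = 0.0609 to 0.199), in DESeq2 (0.0828) or at equal depth (0.0907).

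Lists of general cell components are set beside the 7.92% called over all genes. Of 77 cytosolic ribosomal protein genes, 0 were called higher in CA3 and 2 higher in DG (with the replicate block 1 and 7), and of 76 nuclear genes of the respiratory chain 2 and 0 (with the replicate block 5 and 1). Of 15 mitochondrially encoded transcripts 1 was called each way (with the replicate block 2 and 5). These were mt-Atp8, with 30 UMIs in CA3 and none in DG, and the ribosomal RNA mt-Rnr1 (-0.45 ± 0.14, adjusted p = 0.035). DESeq2 gave mt-Atp8 no adjusted p, and mt-Rnr1 was not called without CA3 replicates 1, 2 or 3 or DG replicates 1, 2 or 4 (adjusted p = 0.0765 to 0.121) or with the correction for repeated UMIs (0.754). The mitochondrial list covers only reads assigned to the mitochondrial genes themselves. Reads of several members can be assigned to nuclear copies, described below. Means of mt-Co2 were 81.4 CPM in CA3 and 62.3 CPM in DG, and those of Gm13341, which resembles it, 2005 and 302 CPM. Of 8 nuclear-retained transcripts 1 was called each way (with the replicate block 2 and 1), Snhg11 toward CA3 (0.43 ± 0.14, adjusted p = 0.0489) and Miat toward DG (-0.64 ± 0.17, adjusted p = 0.0141). Snhg11 was not called without CA3 replicates 1, 2, 3 or 4 or DG replicates 1, 2 or 4 (adjusted p = 0.0686 to 0.191) or at equal depth (0.0787), and Miat was not called without CA3 replicates 2 or 3 (adjusted p = 0.0563 to 0.0603) or at equal depth (0.0719).

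**Figure D3:**
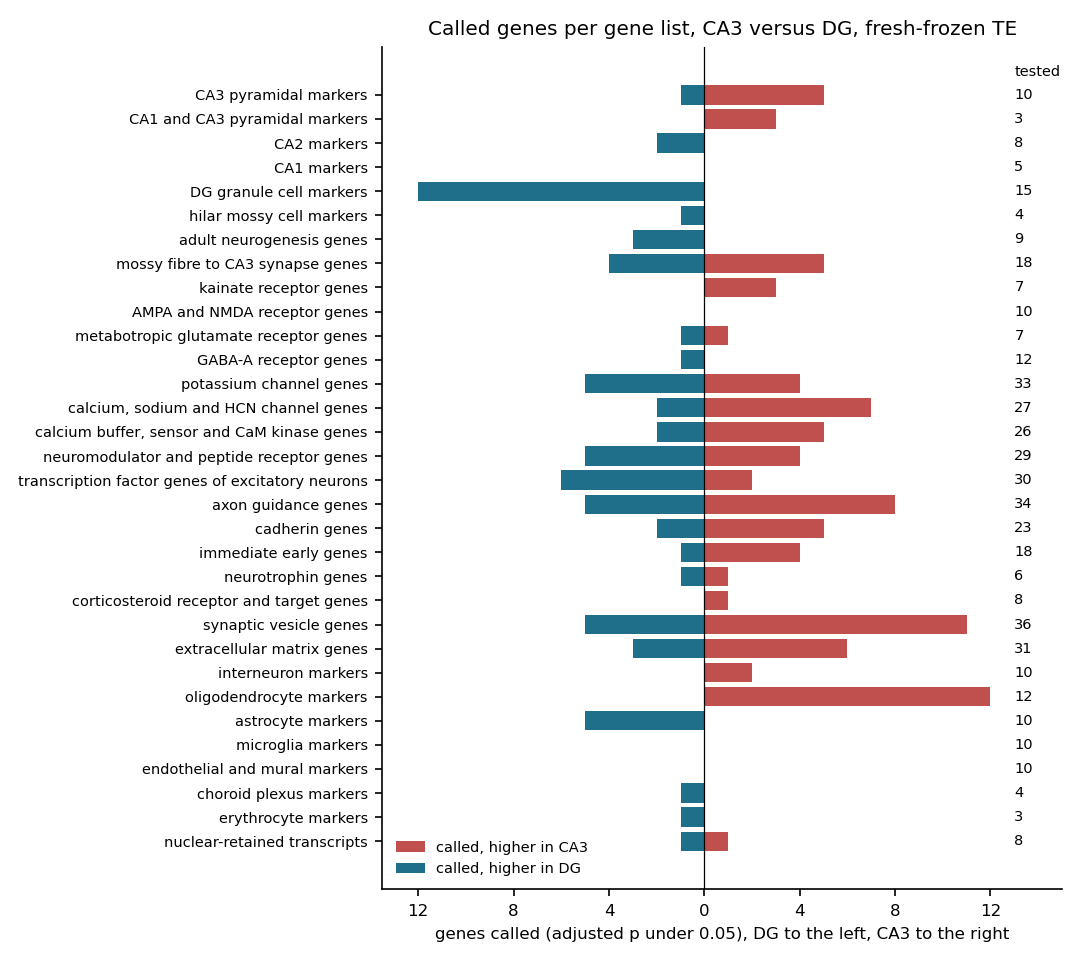
Number of genes called at an adjusted p under 0.05 in each of 32 gene lists, with genes higher in DG as bars to the left and genes higher in CA3 to the right, and the number tested at the margin. The oligodendrocyte list has 12 of 12 genes higher in CA3, and the granule cell list 12 of 15 higher in DG.

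Markers of cells other than excitatory neurons also moved with the region. All 12 oligodendrocyte markers were called higher in CA3, with fold changes from 1.11 to 2.05, and all stayed called in each fit without 1 replicate. Mbp stood at 2647, 2294, 2114 and 2159 CPM in CA3 and at 1246, 934, 1049 and 1202 CPM in DG. Mbp encodes myelin basic protein and changed by 1.11 ± 0.14 (adjusted p = 3.69e-06). Mal stood at 286, 696, 609 and 225 CPM in CA3 and at 108, 98.8, 174 and 57.7 CPM in DG, and this myelin proteolipid changed by 2.05 ± 0.27 (adjusted p = 3.56e-06). The summed level of the list was 6639.7 to 9625 CPM over the CA3 replicates, 3045 to 4066 CPM over the DG replicates and 7083 to 12320.4 CPM over the CA1 replicates. No defining oligodendrocyte marker was at 0 in either region. Of 10 astrocyte markers, 5 were called higher in DG and 0 higher in CA3, with summed levels of 2896 to 3429 CPM in CA3 and 4713 to 6195 CPM in DG. The bicarbonate transporter Slc4a4, at 314, 467, 637 and 317 CPM in CA3 and 921, 1295, 1112 and 788 CPM in DG, and the water channel Aqp4 stayed called in each such fit (-1.20 ± 0.18, adjusted p = 3.42e-05 and -0.92 ± 0.15, adjusted p = 1.30e-04). Slc1a3 (-0.63 ± 0.16, adjusted p = 0.0131), Gfap (-0.79 ± 0.25, adjusted p = 0.0437) and Gja1 (-0.53 ± 0.17, adjusted p = 0.0429) were called with all replicates but not in every fit that left out 1. Slc1a3 was not called without CA3 replicate 2 or DG replicate 4 (adjusted p = 0.0531 to 0.106), Gfap was not called without CA3 replicates 2 or 3 or DG replicates 1, 2 or 4 (adjusted p = 0.0634 to 0.194) or in DESeq2 (0.0521), and Gja1 was not called without CA3 replicates 1, 2 or 4 or DG replicates 1 or 4 (adjusted p = 0.0685 to 0.149).

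None of 10 microglia markers and none of 10 endothelial and mural markers was called in edgeR or DESeq2, and 0 and 1 of them had an unadjusted p under 0.05. Their summed levels were 178 to 231 and 418 to 565 CPM in CA3 and 171 to 299 and 470.2 to 634 CPM in DG. Of 10 interneuron markers, the peptide genes Sst and Cck were called higher in CA3 (with the replicate block 4 and 0). Sst stood at 388, 256, 309 and 369 CPM in CA3 and at 119.9, 162, 189.6 and 173 CPM in DG, a change of 1.09 ± 0.18 (adjusted p = 9.43e-05), and Cck changed by 0.71 ± 0.21 (adjusted p = 0.0361). Cck was not called without CA3 replicates 1 or 4 or DG replicates 1, 2 or 3 (adjusted p = 0.0528 to 0.218) or in DESeq2 (0.342), and its fold change was 0.45 without CA3 replicate 4. Gad1 and Gad2, which every GABAergic interneuron uses to make GABA, were not called (-0.17 ± 0.17, adjusted p = 0.684 and -0.012 ± 0.16, adjusted p = 0.983). The choroid plexus gene Ttr, which encodes transthyretin, was uneven within both regions. Ttr stood at 715, 1070.3, 155 and 375 CPM in CA3 and at 2549, 2138, 2620.5 and 47.5 CPM in DG. The regions overlapped, the edgeR change was -1.63 ± 0.49 (adjusted p = 0.0346), and a two-sided exact permutation test of the 4 against 4 CPM gave p = 0.143. Ttr was not called without CA3 replicates 3 or 4 or DG replicates 1, 2 or 3 (adjusted p = 0.0833 to 0.122) or in DESeq2 (0.466). The other 3 choroid plexus genes tested were not called, but all 4 had fold changes from -2.79 to -1.36, each with an unadjusted p under 0.05 in edgeR. With the replicate block 2 of them were called, and without 1 replicate 0 to 3. Their summed level was 161 to 1093 CPM in CA3 and 57.7 to 2666 CPM in DG. Hbb-bs, a haemoglobin gene, changed by -0.82 ± 0.22 (adjusted p = 0.0143), and the other 2 erythrocyte genes tested were not called. Hbb-bs was not called without CA3 replicates 1 or 2 or DG replicates 2 or 3 (adjusted p = 0.0509 to 0.0773). The part that myelin, astrocyte, choroid plexus or blood transcripts have in the differences of other genes was not tested.

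**Figure D4:**
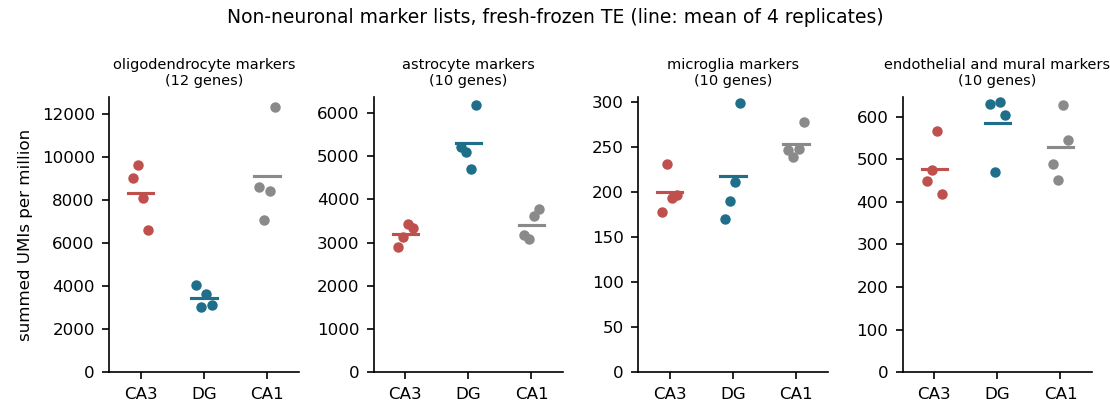
Summed level of 4 non-neuronal marker lists in CPM, with 1 point per replicate and a line at the mean of 4, in CA3, DG and CA1 (axes start at 0). The oligodendrocyte sums of CA3 and DG do not overlap (6639.7 to 9625 against 3045 to 4066), and the microglia sums do.

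The largest called changes were ranked among genes whose higher region averaged at least 20 UMIs a replicate and whose regions did not overlap. They are given here where no list above held them. Slc9a4, a sodium-proton exchanger, was at 57.5, 42.3, 37.5 and 64.5 CPM in CA3 and 6.10, 11.9, 13.4 and 10.2 CPM in DG (2.24 ± 0.33, adjusted p = 2.47e-05). Slc9a2 of the same family, which lies on the same chromosome (chr1:40580081-40630725 and chr1:40680574-40769273), changed by 2.31 ± 0.40 (adjusted p = 1.98e-04). The receptor tyrosine kinase gene Kit, the receptor for stem cell factor, was at 63.4, 50.4, 50.4 and 54.7 CPM in CA3 and 8.13, 13.6, 11.7 and 20.4 CPM in DG (2.12 ± 0.30, adjusted p = 1.04e-05). The small GTPase gene Rem2 (2.36 ± 0.38, adjusted p = 9.21e-05), the phosphatase-complex gene Strip2 (2.03 ± 0.31, adjusted p = 4.16e-05), Tmem215 (2.34 ± 0.39, adjusted p = 1.19e-04) and Prr18 (2.38 ± 0.32, adjusted p = 5.08e-06) were also among them. Thsd4, a matrix protein gene, changed by 2.52 ± 0.52 (adjusted p = 0.00151), with an adjusted p of 0.0807 in DESeq2 and a fold change of 5.15 without DG replicate 3. The unannotated transcript Gm38073 had 89 UMIs over the CA3 replicates and 1 over the DG replicates.

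Toward DG, Tac2 led the protein-coding genes. Tac2 stood at 5.90, 3.60, 3.22 and 3.91 CPM in CA3 and at 69.1, 93.7, 117 and 10.2 CPM in DG, and this tachykinin precursor changed by -4.17 ± 0.45 (adjusted p = 1.36e-07). Pter, a phosphotriesterase-related gene, was at 16.2, 24.3, 13.9 and 23.4 CPM in CA3 and 191, 131, 143 and 204 CPM in DG (-3.03 ± 0.23, adjusted p = 2.13e-10). Pter and C1ql3 are neighbours on chromosome 2, at chr2:12924041-13003455 and chr2:13003457-13011806, and both separated the regions. They lie on opposite strands with their annotated ends next to each other, and the counting command of the study's methods sets no strand option, so that reads past an annotated end can be assigned to the other gene and the counts of both are uncertain. Lgr6, a receptor for R-spondins (-2.93 ± 0.31, adjusted p = 1.10e-07), the zinc finger gene Zic4 (-2.63 ± 0.35, adjusted p = 4.03e-06), Lratd2 (-2.58 ± 0.29, adjusted p = 3.93e-07) and the unannotated transcript Gm43230 (-4.26 ± 0.54, adjusted p = 2.60e-06) completed the group beside the granule cell markers. Abundant genes with a fold change of at least 1 included Chgb and Nptxr. Chgb stood at 1254, 848, 973 and 1845 CPM in CA3 and at 598, 383, 409 and 411 CPM in DG. Chromogranin B, a protein of dense-core vesicles, changed by 1.51 ± 0.20 (adjusted p = 6.31e-06), and the neuronal pentraxin receptor gene Nptxr, at 1251 ± 215 CPM in CA3 and 620.2 ± 83.7 CPM in DG, by 1.07 ± 0.16 (adjusted p = 2.53e-05). Toward DG, the diacylglycerol kinase gene Dgkh was at 416, 389, 375 and 403 CPM in CA3 and 1484, 1755, 1272 and 1861 CPM in DG (-1.96 ± 0.15, adjusted p = 2.13e-10). Adcy1 stood at 800.3, 944, 992 and 659 CPM in CA3 and at 2259, 2148, 2067 and 2354 CPM in DG, and this calcium-stimulated adenylyl cyclase changed by -1.33 ± 0.14 (adjusted p = 1.26e-07).

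CA1 of the same preparation gave the level of these genes in another pyramidal field. CA3 was compared with CA1 over 14544 genes, of which 353 (2.43%) were called higher in CA3 and 290 (1.99%) higher in CA1. This comparison shares the CA3 replicates with the one above, so values are only set side by side. Dkk3 was at 511 ± 70.5 CPM in CA1 (CA3 over CA1 0.34 ± 0.16, adjusted p = 0.337) and Meis2 at 93.0 ± 21.4 CPM (-0.18 ± 0.20, adjusted p = 0.788). Chgb and Nptxr were at 372 ± 87.2 and 365 ± 17.1 CPM in CA1 and were called higher in CA3 there too (1.75 ± 0.21, adjusted p = 1.85e-06 and 1.79 ± 0.16, adjusted p = 8.31e-09). Slc9a4 was at 5.99 ± 5.38 CPM in CA1 (2.79 ± 0.38, adjusted p = 1.47e-05), and Kit at 17.1 ± 4.30 CPM (1.73 ± 0.26, adjusted p = 6.68e-05). Prox1 was at 136 ± 35.7 CPM in CA1, beside 199 ± 16.1 CPM in CA3 (0.57 ± 0.18, adjusted p = 0.0626). Of the oligodendrocyte markers 0 were called higher in CA3 than in CA1 and 0 lower, and Mbp was at 2812 ± 898 CPM in CA1 (-0.28 ± 0.17, adjusted p = 0.522).

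Several of the most changed features were near-identical copies of other genes, and their counts were uncertain because reads of 1 copy can be assigned to the other. Gm29216 had the largest fold change of the genes ranked above (5.36 ± 0.21, adjusted p = 1.12e-17), with 1669.8, 1191, 1112 and 1419 CPM in CA3 and 38.6, 34.1, 33.6 and 27.2 CPM in DG. It is annotated as a pseudogene at chr1:24615706-24616197 and matched the mitochondrial gene mt-Co1 over 483 bases with 1 mismatch (99.8% identity). The stretch around this mismatch is shown for both transcripts because it holds the only base that differs within the aligned part, written 5′ to 3′ with that base in capitals (GENCODE M21, GRCm38, Gm29216 at chr1:24616146-24616188 on the minus strand and mt-Co1 at chrM:6390-6432 on the plus strand).
Gm29216: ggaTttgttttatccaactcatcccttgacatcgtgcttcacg
mt-Co1: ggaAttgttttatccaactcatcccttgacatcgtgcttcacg
The difference is A1066T, counted from 1 at the 5′ end of the mt-Co1 transcript, with the base of mt-Co1 first. Over the same replicates mt-Co1 was at 1352 ± 269 CPM in CA3 and 1316 ± 157 CPM in DG (0.09 ± 0.15, adjusted p = 0.824). The ratio of mean CPM of CA3 to DG was 40.4 for Gm29216, 1.03 for mt-Co1 and 2.0 for their sum.

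A gene toward DG of the same kind was Rpl37rt, a transcribed copy of the ribosomal protein gene Rpl37. Rpl37rt stood at 11.8, 6.30, 8.58 and 17.6 CPM in CA3 and at 187, 139.7, 129 and 258 CPM in DG (-4.04 ± 0.29, adjusted p = 4.37e-11). Both transcripts aligned over 344 bases with 1 mismatch, which lies in this stretch of the coding sequence of Rpl37 (Rpl37rt at chr5:115103234-115103293 on the minus strand, Rpl37 at chr15:5118571-5118630 on the plus strand, the differing base in capitals).
Rpl37rt: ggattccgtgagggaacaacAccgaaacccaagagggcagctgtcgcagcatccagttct
Rpl37: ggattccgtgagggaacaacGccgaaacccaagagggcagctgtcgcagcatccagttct
The difference is G286A, counted from 1 at the 5′ end of the Rpl37 transcript, with the base of Rpl37 first. Rpl37 itself was at 277 ± 53.4 CPM in CA3 and 234 ± 56.5 CPM in DG (0.32 ± 0.18, adjusted p = 0.371), and the ratio of CA3 to DG was 0.062 for the copy and 0.699 for the sum of both. Gm13341, which matched mt-Co2 at 95.9% over 684 bases, was at 2005 ± 507 CPM in CA3 and 302 ± 34.1 CPM in DG, a ratio of 6.64 that became 5.73 in the sum with mt-Co2. This sum leaves out Gm28661, which is identical to mt-Co2 over 681 bases. Gm28661 was at 124 ± 14.8 CPM in CA3 and 146 ± 17.3 CPM in DG. Gm10925, identical to mt-Atp6 over 678 bases, had a ratio of 3.50 and its sum 2.99. Gm12346, a copy of Hsp90aa1 at 99.5% over 2255 bases, had a ratio of 0.0399, and the sum with Hsp90aa1 had 1.22. The parent genes mt-Co2 and mt-Atp6 were chosen for this after their copies' values were seen.

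The contrast was measured again in the other 3 preparations, which are separate libraries. The labels do not say whether they share mice. With HCl (0.1 N, 5 min) on fresh-frozen sections, 1363 of 15161 genes were called (8.99%). Of the 1140 genes called with TE, 1134 were tested there, 1086 had the same sign (95.8%), 677 were called with the same sign (59.7% of those tested and 49.7% of the genes called there) and 2 with the opposite sign. Fixed frozen sections had 866 calls among 9353 genes (9.26%). There 857 of 957 had the same sign, 387 were called with the same sign (40.4%, and 44.7% of the calls there) and 4 with the opposite. The edgeR p-values of the fixed frozen fit rest on a spread shared across genes more than on that of each gene, and DESeq2 called 445 genes. The edgeR p-values of the paraffin fit, and of the interactions below against fixed frozen and paraffin sections, also rest mostly on such a shared spread. Paraffin sections had 306 calls among 9380 genes (3.26%), and 831 of 972 had the same sign, 150 being called with the same sign (15.4%, and 49.0% of the calls there) and 6 with the opposite. Fixed frozen replicates held 52800 to 141682 UMIs in CA3 and 109002 to 307145 in DG. Paraffin replicates held 39902 to 120872 and 64265 to 223055, also fewer than with TE on fresh-frozen sections. The part of depth in these shares was not tested.

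Prox1, Dkk3, C1ql2, Sv2b and Calb1 kept their direction in the preparations. In HCl, fixed frozen and paraffin sections in that order, the fold changes of Prox1 were -2.09 ± 0.21, -3.15 ± 0.25 and -2.17 ± 0.32, those of Dkk3 1.67 ± 0.17, 1.89 ± 0.22 and 1.49 ± 0.28 and those of C1ql2 -2.99 ± 0.25, -2.80 ± 0.35 and -3.43 ± 0.79, all called. Sv2b had 1.74 ± 0.20, 2.57 ± 0.24 and 2.06 ± 0.33, and Calb1 -2.49 ± 0.27, -2.58 ± 0.26 and -3.24 ± 0.59, again called in each. The granule cell list had 13, 11 and 6 genes called higher in DG, and 0 higher in CA3, in the same order. Oligodendrocyte markers were called higher in CA3 in 12, 6 and 1 of 12 genes, with Mbp at 0.75 ± 0.16, 0.65 ± 0.17 and 0.77 ± 0.27. Sst, called in TE, had -0.029 ± 0.19, -0.22 ± 0.27 and -0.36 ± 0.29 elsewhere, with adjusted p-values of 0.961, 0.721 and 0.633. Its interaction was called against fixed frozen and paraffin sections (1.34 ± 0.32 and 1.53 ± 0.33, adjusted p = 0.0238 and 0.00518). The interaction of Sst was not followed in the other settings. Of the CA1 markers, all 5 tested had a positive fold change with TE, without a call, whereas 0 of 5, 3 of 3 and 0 of 4 were called higher in DG in the same order, with medians of -0.60, -1.96 and -1.25. Wfs1, which did not separate the regions with TE, had -0.74 ± 0.32, -2.35 ± 0.59 and -1.04 ± 0.86 (adjusted p = 0.18, 0.00185 and 0.65).

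The difference of the contrast itself was tested as an interaction of region and preparation. Against HCl, 17 of 16729 genes were called (0.102%). Against fixed frozen sections 56 of 14943 were called (0.375%), and against paraffin sections 61 of 15075 (0.405%). These calls were toward CA3 in TE for 42 and toward DG for 14 genes against fixed frozen sections, and for 39 and 22 against paraffin sections, but DESeq2 gave 21 and 37, and 17 and 44. The median difference over all genes was 0.22 and 0.24 in edgeR and -0.11 and -0.09 in DESeq2. With the replicate block the calls were 119, 152 and 130, and at equal depth 16, 9 and 12. Of the 17, 56 and 61 calls, 10, 9 and 10 were also made at equal depth, and 17, 32 and 31 by DESeq2. Interactions of single genes were not followed in these settings. Near-identical copies were among the strongest in all 3. The interaction log2 difference, TE minus the other preparation, of Gm29216 was 1.70 ± 0.35 (adjusted p = 0.0215), 3.61 ± 0.25 (adjusted p = 1.51e-27) and 7.21 ± 0.34 (adjusted p = 4.81e-50) against HCl, fixed frozen and paraffin sections, and its fold change in paraffin was -1.75 ± 0.26 (adjusted p = 1.00e-06), opposite to that in TE. Ttr differed against fixed frozen sections (-6.86 ± 0.57, adjusted p = 3.34e-21), where CA3 was higher (5.23 ± 0.29, adjusted p = 9.00e-70). The CA3 replicates of Ttr lay far apart in fixed frozen sections. The SE and p-value of this fit rest on a spread shared across genes and do not measure that of Ttr itself. Among other genes, Arf3, a small GTPase of vesicle transport, differed against HCl (1.25 ± 0.24, adjusted p = 0.011), at 998, 680.0, 626 and 987 CPM in CA3 and 608, 475, 488 and 635 CPM in DG with TE. Enpp2, the autotaxin gene, differed against fixed frozen sections (-2.43 ± 0.33, adjusted p = 6.75e-09), and Nap1l5, Wdr89 and Agap2 against paraffin sections (1.80 ± 0.32, adjusted p = 6.87e-05, -3.29 ± 0.40, adjusted p = 3.55e-11 and -2.42 ± 0.37, adjusted p = 8.04e-07).

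**Figure D5:**
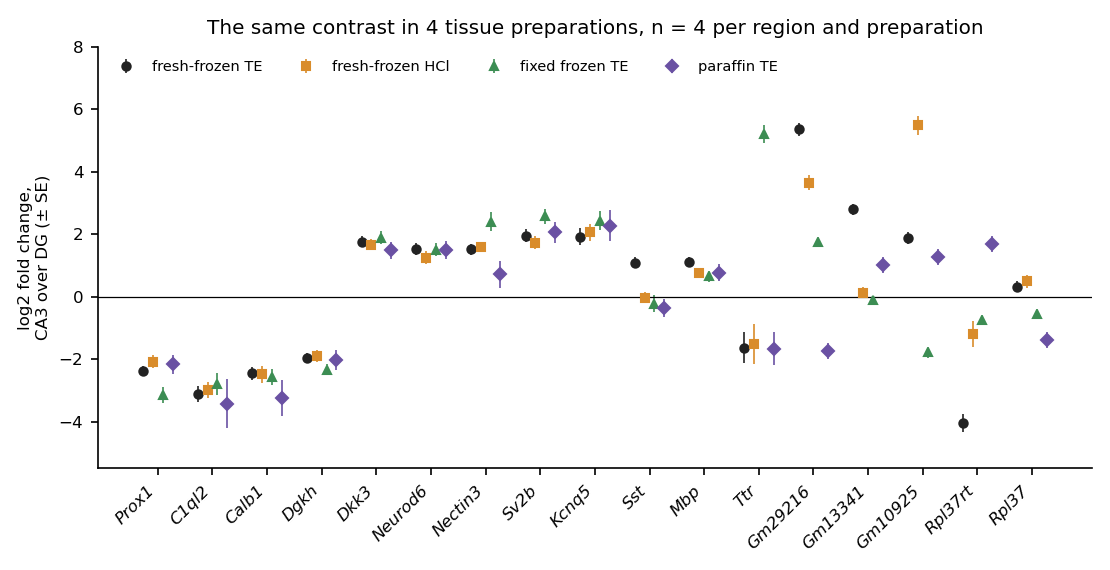
Fold change of CA3 over DG on the log2 scale in 4 tissue preparations for 17 genes, with the SE as bars (n = 4 per region and preparation). Prox1, C1ql2, Calb1 and Dgkh lie below 0 and Dkk3, Neurod6, Nectin3 and Sv2b above 0 in each preparation. Sst, Ttr, Gm29216, Gm13341, Gm10925, Rpl37rt and Rpl37 cross 0, Gm29216 running from 5.36 with TE to -1.75 in paraffin.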

How the data were processed

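Regions of hippocampal sections were profiled by PIC with CEL-seq2. Barcodes and UMIs, each 6 bases long, were taken from the reads by the authors with UMI-tools 1.0.0. They removed adapters with Trim Galore, mapped to GRCm38 with HISAT2 2.1.0, used featureCounts 1.6.4 for gene assignment and took each distinct UMI of a barcode and gene as 1 count, with no correction of UMI errors. The deposited counts are whole numbers for 32546 genes, not normalized. The authors used DESeq2 1.20.0 for their own calls. The annotation release is not given in the sources used here, and the counting command of the study's methods sets no strand option. UMIs of 6 bases allow 4096 different UMIs per gene, and mt-Rnr2 had 4093 to 4317 in the TE replicates of CA3 and DG. GENCODE M21 gave positions and transcript sequences and contained 32515 of the gene identifiers.

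CA3 and DG were compared with edgeR 4.0.16 (quasi-likelihood test, TMM) in R 4.3.3 on genes with at least 10 UMIs over the replicates compared, with Benjamini-Hochberg adjustment and a threshold of 0.05. Preparations were compared by an interaction term over 16 replicates. The fitting script was tested on simulated data. Tables were made with pandas 2.3.3 and figures with matplotlib 3.10.9 in Python 3.11.15. Transcripts were aligned with blastn 2.17.0. Replicates of a region differed beyond counting error, with chi-square values per degree of freedom of 1.69 to 4.06. Same-numbered TE replicates of CA3 and DG deviated together across genes (correlations of 0.312, 0.296, 0.281 and 0.213 for replicates 1 to 4). So did CA3 replicates 3, 2, 1 and 4 with DG replicates 2, 3, 4 and 1 (0.242, 0.154, 0.134 and 0.135), and all other pairs were negative. Replicates 1 and 4 thus stood against 2 and 3, which held more UMIs in both regions. These correlations do not establish pairing by number. They are a property of the data and not of the labels, and a fit with the replicate number as a block was an alternative. Other alternatives were DESeq2 1.42.0, other scalings and filters, CA1 in the fit, thinning to the smallest total, a correction for repeated UMIs and leaving out each replicate.

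Members and gene lists were chosen with earlier results of these data known, and no test was made over a list. Genes named are Dkk3, Prox1, Wfs1, Ociad2 and Pdzd2, the 15 called genes with the largest fold change each way (mean of at least 20 UMIs per replicate in the higher region, regions not overlapping), the 5 most abundant called genes each way with a log2 fold change of at least 1 in size, called or defining members of 35 lists, and the 5 called interactions with the smallest adjusted p each way per preparation. Parent genes of near-identical copies were added after the values were seen. Not every gene that this rule names is reported here.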

Additional observations from a re-analysis of the deposited data

Results flagged for a closer look

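Single replicates stood apart in 22 of 326 sets of 4 replicates of the genes named here, where the gap of the highest or lowest replicate to its nearest neighbour took more of the range than Dixon's 95% critical value, and chance gives this in about 1 of 20 sets. The highest CA3 replicate stood apart for Prox1 in replicate 2 (223 CPM, ratio 0.851), Tdo2 in replicate 1 (11.8 CPM, ratio 0.851), Zic4 in replicate 3 (16.1 CPM, ratio 0.837), Gm12346 in replicate 3 (5.36 CPM, ratio 0.832), Agap2 in replicate 2 (439 CPM, ratio 0.837), Gabrd in replicate 3 (4.29 CPM, ratio 1), Camk2a in replicate 4 (2407 CPM, ratio 0.858) and Gja1 in replicate 3 (163 CPM, ratio 0.861). The lowest CA3 replicate did so for Prr18 in replicate 1 (39.8 CPM, ratio 0.95), Grik2 in replicate 1 (47.2 CPM, ratio 0.856) and Gad2 in replicate 1 (164 CPM, ratio 0.862). In DG the highest replicate stood apart for Wfs1 in replicate 3 (77.2 CPM, ratio 0.856), Thsd4 in replicate 3 (16.8 CPM, ratio 0.898), Gm38073 in replicate 1 (2.03 CPM, ratio 1), Chgb in replicate 1 (598 CPM, ratio 0.871), Iyd in replicate 3 (1.68 CPM, ratio 1), Htr4 in replicate 2 (35.8 CPM, ratio 0.845), Npy1r in replicate 2 (66.4 CPM, ratio 0.905), Jun in replicate 2 (286 CPM, ratio 0.874) and Slc1a3 in replicate 4 (3267 CPM, ratio 0.84), and the lowest for Gpr158 in replicate 4 (37.4 CPM, ratio 0.927) and Cacna1a in replicate 2 (404 CPM, ratio 0.892). Replicates 1 to 4 held 6, 6, 7 and 3 of these sets. For genes with few UMIs, such as Iyd, Gabrd, Gm38073 and Gm12346, the value of 1 replicate is a matter of 1 to 5 UMIs.

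The contrast differed between preparations by a test of the interaction itself, in edgeR's quasi-likelihood fit. Whether the calls of single genes hold in the other settings was not followed. Against HCl-permeabilized sections the interaction log2 difference of CA3 over DG, TE minus the other, was called for these named genes that are or have near-identical copies, Gm12346 (-6.42, adjusted p = 0.00463), Gm28437 (-5.77, adjusted p = 6.44e-16), Gm10925 (-3.60, adjusted p = 5.32e-07), Rpl37rt (-2.84, adjusted p = 0.00876), Gm28661 (-1.95, adjusted p = 1.87e-04), mt-Co1 (-1.24, adjusted p = 0.00359), Gm29216 (1.70, adjusted p = 0.0215) and Gm13341 (2.65, adjusted p = 4.59e-08). It was also called for Gm10722 (-4.87, adjusted p = 1.05e-09), Wdr89 (-2.14, adjusted p = 0.00487), Arf3 (1.25, adjusted p = 0.011) and Ccdc149 (1.80, adjusted p = 0.0424). Genes listed second, here and in the comparisons below, were not searched for near-identical copies and may have them.

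Against fixed frozen sections the interaction log2 difference of CA3 over DG, TE minus the other, was called among genes with copies for Rpl37rt (-3.25, adjusted p = 3.07e-16), Hsp90aa1 (-1.44, adjusted p = 5.67e-07), Gm28661 (2.16, adjusted p = 6.21e-13), Gm28437 (2.89, adjusted p = 1.09e-24), Gm13341 (2.92, adjusted p = 7.88e-25), Gm29216 (3.61, adjusted p = 1.51e-27) and Gm10925 (3.70, adjusted p = 2.02e-28). It was also called for Gm12254 (-9.66, adjusted p = 0.00156), Ttr (-6.86, adjusted p = 3.34e-21), Enpp2 (-2.43, adjusted p = 6.75e-09), Slc17a7 (-1.58, adjusted p = 0.0175), Wdr89 (-1.38, adjusted p = 0.0369), Adcy1 (1.04, adjusted p = 0.0172), Bcl11b (1.28, adjusted p = 0.0127) and Sst (1.34, adjusted p = 0.0238). Ttr was at 1976, 191, 376 and 398 CPM in CA3 and from 13.02 to 27.5 CPM in DG of fixed frozen sections. Gm12254 had 0 UMIs in CA3 and 6 in DG with TE.

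Against paraffin sections the interaction log2 difference of CA3 over DG, TE minus the other, was called among genes with copies for Gm12346 (-11.61, adjusted p = 2.29e-13), Rpl37rt (-5.64, adjusted p = 2.44e-33), Gm28437 (-2.64, adjusted p = 3.17e-12), Gm28661 (-1.31, adjusted p = 0.0193), Rpl37 (1.81, adjusted p = 1.68e-05), Gm13341 (1.89, adjusted p = 2.48e-06) and Gm29216 (7.21, adjusted p = 4.81e-50). It was also called for Wdr89 (-3.29, adjusted p = 3.55e-11), Slc17a7 (-3.21, adjusted p = 8.97e-06), Agap2 (-2.42, adjusted p = 8.04e-07), Mal (1.52, adjusted p = 0.0133), Sst (1.53, adjusted p = 0.00518), Nap1l5 (1.80, adjusted p = 6.87e-05) and Gm38073 (6.03, adjusted p = 0.0113). In paraffin sections the oligodendrocyte markers had a median fold change of 0.44, against 1.57 with TE on fresh-frozen sections. The part of library, tissue and preparation in these differences cannot be told apart.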

How the results depend on the processing

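Of 133 genes named here and called between CA3 and DG with TE, 109 stayed called without any 1 replicate and 104 in every setting that tested them. Over 2748 combinations of a named gene and a setting of this contrast, 2576 kept direction and side of the threshold, 137 lost the call, 23 gained one and 12 turned sign, none of them a called gene. The sign turned for Wfs1 without CA3 replicate 3, DG replicate 1 or DG replicate 2, from -0.085 to 0.54 over the fits without 1 replicate. The sign turned for Agap2 without CA3 replicate 2, from -0.054 to 0.15 over the fits without 1 replicate. The sign turned for Glis3 without DG replicate 1, from -1.20 to 0.030 over the fits without 1 replicate. The sign turned for Slc17a7 without CA3 replicate 1, DG replicate 2 or DG replicate 3, from -0.22 to 0.040 over the fits without 1 replicate. The sign turned for Gad2 without CA3 replicate 1 or DG replicate 2, from -0.073 to 0.076 over the fits without 1 replicate, and with no filter on low counts (0.0060). The sign turned for mt-Co3 without CA3 replicate 3, from -0.099 to 0.19 over the fits without 1 replicate. With the replicate block the calls were 1944 between CA3 and DG with TE, 1227 between CA3 and CA1, 2619 with HCl, and 119, 152 and 130 for the differences against HCl, fixed frozen and paraffin sections. The block gained calls for Rgs14, Amigo2, Camk2a, Zbtb20, Gm28437 (adjusted p = 0.00668), mt-Co2 (0.0337), mt-Rnr2 (5.09e-10) and Enpp2 (adjusted p = 2.57e-10). It changed no other call of a named gene. The counts of mt-Rnr2 lay at the limit of different UMIs per gene in every replicate of both regions (4093 to 4317 UMIs). Its CPM therefore follow the total of the replicate, and its call cannot show a difference between the regions. With the correction for repeated UMIs mt-Rnr2 was not tested. At equal depth the calls were 736 with TE (668 shared), 786 with HCl, 346 in fixed frozen and 117 in paraffin sections, and 9 and 12 for the differences against the last 2. DESeq2 called 445 in fixed frozen and 151 in paraffin sections, and 857 with TE. Leaving out 1 replicate gave 718 to 993 calls with TE, the fewest without DG replicate 2, and 469 to 579 between CA3 and CA1, 1032 to 1297 with HCl, 603 to 788 in fixed frozen and 171 to 428 in paraffin sections. For the differences it gave 10 to 20 against HCl, 29 to 66 against fixed frozen and 36 to 134 against paraffin sections, with 134 without paraffin CA3 replicate 1, 36 without CA3 replicate 3 and 40 without DG replicate 1. The lowest count against HCl was without HCl DG replicate 4, and the counts against fixed frozen sections were 29 to 35 without fixed frozen CA3 replicates 3 or 4 or DG replicates 2 or 3. In paraffin sections alone there were 171 calls without CA3 replicate 2 and 172 without DG replicate 2. The cause of these changes was not tested, apart from the fewer UMIs at equal depth. The other settings for TE, which were the scaling, the filters, CA1 in the fit and the correction for repeated UMIs, gave 1013 to 1216 calls. Depth limits genes with few UMIs most, and 9014 genes with 1 to 9 UMIs were not tested.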

Other observations

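Among other genes ranked by the interactions, Ccdc149 had fold changes of CA3 over DG of 0.50 ± 0.32 with TE and -1.31 ± 0.22 with HCl, and Gm10722 of -1.13 ± 0.35 and 3.74 ± 0.25. The mitochondrial pseudogenes Gm28437 and Gm28661, which lie like Gm10925 and Gm29216 on chromosome 1, had 0.35 ± 0.17 and -0.18 ± 0.17 with TE and 6.12 ± 0.25 and 1.77 ± 0.23 with HCl. Both were identical over their aligned 783 and 681 bases to mt-Co3 and mt-Co2.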
